A study of Mus musculus with 18 samples.

Results

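Thioredoxin, sulfiredoxin and the peroxiredoxins were followed through 6 treatment groups of mouse lung. The gene set held 10 genes, namely the thioredoxin gene Txn1, the thioredoxin reductases Txnrd1 and Txnrd2, the sulfiredoxin Srxn1, the thioredoxin-binding protein Txnip, and the peroxiredoxins Prdx1, Prdx2, Prdx4, Prdx5 and Prdx6. A gene was measured if a probe set was annotated to its symbol alone, and of several such probe sets the brightest on average gave its signal. 21 probe sets met that rule and covered 7 of the 10 genes. All 5 probe sets of Prdx1 carry the symbol Gm21399 as well, and no probe set is listed under Prdx5 or Prdx6 in the annotation used, so these 3 genes were not analysed here. All 7 measured genes were among the 13434 genes tested, out of 18193 with a probe set of their own. In RefSeq's annotation they lie on chromosomes 4 (Txn1), 10 (Txnrd1), 16 (Txnrd2), 2 (Srxn1), 3 (Txnip), 8 (Prdx2) and X (Prdx4).

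Thioredoxin is a small protein with a dithiol that reduces disulfides in other proteins, and thioredoxin reductase, a selenoprotein, recharges it with electrons from NADPH. Peroxiredoxins use a reactive cysteine to break down peroxides and are for the most part returned to the reduced state by thioredoxin. When that cysteine is oxidised too far, sulfiredoxin repairs it, while Txnip binds reduced thioredoxin and holds it inactive. Several of these genes, Srxn1 and Txnrd1 among them, are known targets of NRF2, the transcription factor that drives antioxidant and detoxifying genes. The lung lining meets inhaled and blood-borne oxidants, and its epithelium is a well-known site of NRF2 activity.

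The animals were female B6C3F1 mice, a hybrid strain, 18 weeks old after 13 weeks of dosing, with 3 animals and 3 arrays in each group. 1,5-Naphthalenediamine (NDA, 2000 ppm) is labelled a positive lung carcinogen and was given in feed on 7 days a week. N-(1-Naphthyl)ethylenediamine dihydrochloride (NEDD, 2000 ppm) and pentachloronitrobenzene (PCNB, 8187 ppm) are labelled negative and were given in the same way. 2,3-Benzofuran (240 mg/kg) is labelled positive and was given by gavage on 5 days a week. Untreated feed was the control for the feed treatments, and corn oil gavage at 5 ml/kg was the control for benzofuran. Arrays carry the animal's number, and values are given in the order of these numbers within each group. These are 2, 4 and 5 for NDA, 12, 14 and 15 for NEDD, 16, 18 and 20 for PCNB and 6, 8 and 10 for benzofuran, with 27, 28 and 29 for feed control and 22, 24 and 25 for corn oil control. The tissue was the whole right lobe, so that the signals average over many cell types, and tumour outcome was not measured in these animals.

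The arrays had medians of 5.68 to 5.80 on the log2 scale. Benzofuran 10 stood apart, at 46.6 on the first principal component (27.5% of the variance) against -11.8 to 7.81 for the other arrays, and the benzofuran fold changes of the probe sets used are given with and without it. Its actin 3' minus 5' difference, a measure of RNA integrity, was the highest of the 18 arrays at 0.906. Its labelled RNA integrity number (RIN) was 8.9, within the 8.3 to 9.4 of the arrays that have one. The NDA arrays had differences of 0.333 to 0.432, below the 0.58 to 0.726 found for feed control. Of the marker genes of alveolar type 2, type 1, club, ciliated and endothelial cells, all those with a probe set (7, 6, 7, 8 and 7 genes) lay above the 40th percentile on every array. So did all 8 macrophage and all 7 cardiac muscle markers, with 5 of 6 neutrophil and 3 of 5 fat markers. The used probe sets of the 7 genes lay between the 63.8th and the 99.5th percentile of their arrays.

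Txnrd1 and Srxn1 were the measured genes of the set that were called with a treatment against its control, both of them higher. Srxn1 was 3.07-fold higher with NDA than in feed control, and Txnrd1, the cytosolic thioredoxin reductase, was 2.91-fold higher. With benzofuran Txnrd1 was 1.39-fold higher than in corn oil control, a call that rested on single arrays. No measured gene of the set was called with NEDD or PCNB, and none was called lower in any of the 8 comparisons. Fold changes are differences of group means of log2 signals, given with their standard error, and called genes had an adjusted p below 0.05 in limma over all genes tested.

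**Figure D1:**
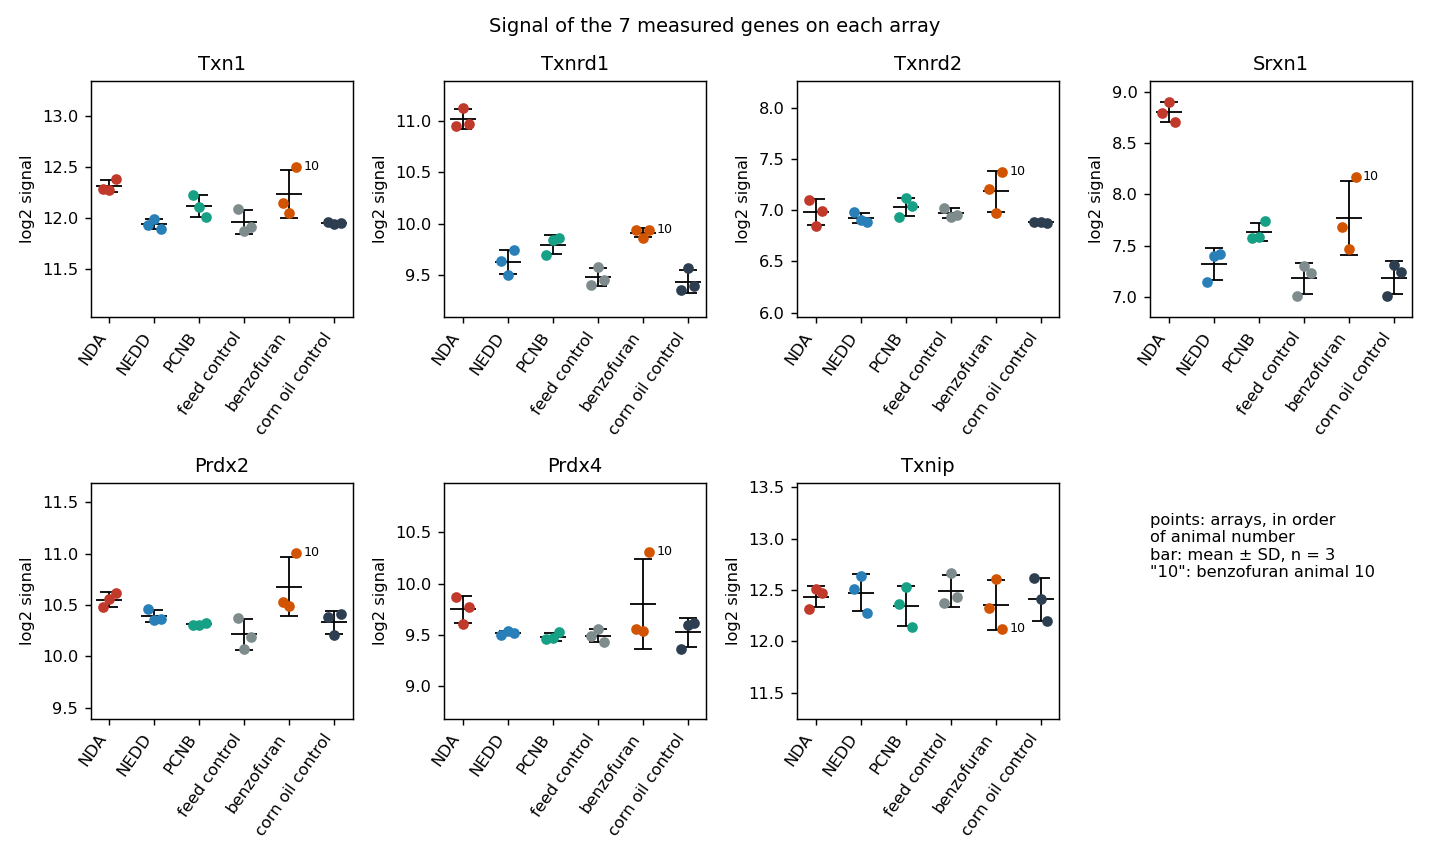
Log2 signal of each of the 7 measured genes on each of the 18 arrays, in panels that all span the same number of log2 units; points are arrays, bars are the group mean ± SD (n = 3), and benzofuran 10 is marked by its number. The 3 NDA arrays stand above all 15 other arrays for Txnrd1 (10.95 to 11.13) and Srxn1 (8.71 to 8.90), while the Txnip groups overlap.

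Txnrd1 had signals of 10.95, 11.13 and 10.97 on the NDA arrays, against 9.40, 9.58 and 9.45 on the feed control arrays. The NDA arrays lay more than 1 log2 unit above the highest array of any other group. The log2 fold change was 1.54 ± 0.10 (95% interval 1.34 to 1.74, adjusted p = 1.92e-08). Benzofuran gave signals of 9.94, 9.86 and 9.94, against 9.35, 9.57 and 9.39 in corn oil control. These groups did not overlap either, and the log2 fold change was 0.48 ± 0.10 (0.27 to 0.68, adjusted p = 0.0176). The value was 0.46 without benzofuran 10 (adjusted p = 0.0513) and 0.43 without corn oil control 22 (adjusted p = 0.108), so that the call was lost with little change in the size.

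PCNB gave Txnrd1 signals of 9.69, 9.84 and 9.86, all above the same feed control arrays. The log2 fold change of 0.32 ± 0.10 (0.11 to 0.52) had an unadjusted p of 0.00426 and an adjusted p of 1 and was not called. NEDD gave 9.63, 9.50 and 9.74, which overlapped feed control, with a log2 fold change of 0.15 ± 0.10 (-0.06 to 0.35, adjusted p = 0.611). Ordered by their means, the Txnrd1 groups ran from NDA (11.02 ± 0.10, SD) over benzofuran (9.91 ± 0.04), PCNB (9.80 ± 0.09), NEDD (9.63 ± 0.12) and feed control (9.48 ± 0.09) to corn oil control (9.44 ± 0.12). From PCNB down, each group overlapped the next in this order.

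Srxn1 had signals of 8.79, 8.90 and 8.71 with NDA, against 7.01, 7.30 and 7.24 in feed control. Again every NDA array was above every array of the other groups. The log2 fold change was 1.62 ± 0.15 (1.31 to 1.93, adjusted p = 2.13e-06). Benzofuran gave 7.68, 7.46 and 8.17, against 7.01, 7.31 and 7.25 in corn oil control. The groups did not overlap, and the log2 fold change of 0.58 ± 0.15 (0.27 to 0.90) was not called (adjusted p = 0.055). Benzofuran 10 was the array at 8.17. Without it the log2 fold change was 0.38 (adjusted p = 0.223), and without benzofuran 8, the lowest of the group, it was 0.74 (adjusted p = 0.0118).

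With PCNB the Srxn1 signals were 7.58, 7.59 and 7.74, all above feed control. The log2 fold change of 0.45 ± 0.15 (0.14 to 0.77) had an unadjusted p of 0.00722 and an adjusted p of 1. With NEDD they were 7.14, 7.40 and 7.42, which overlapped feed control, and the log2 fold change was 0.14 ± 0.15 (-0.18 to 0.45, adjusted p = 0.758). The group means ran in the same order as for Txnrd1 from NDA (8.80 ± 0.10, SD) over benzofuran (7.77 ± 0.36), PCNB (7.63 ± 0.09) and NEDD (7.32 ± 0.16) down to the controls (corn oil control 7.19 ± 0.16, feed control 7.18 ± 0.15). Neighbours in this order overlapped except NDA and benzofuran, and PCNB and NEDD.

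The promoters of these genes are printed because Srxn1 and Txnrd1 moved together. They are the 250 bases before each start site in RefSeq's annotation of assembly GRCm38.p6, on the plus strand, 5′ to 3′. Capitals mark matches on either strand to TGANNNNGC or to TGAGTCA, the AP-1 element. TGANNNNGC is a loose form of the core of the antioxidant response element, which NRF2 binds. Binding to the marked stretches was not tested. The stretch of Srxn1 is chr2:152105274-152105523. Txnrd1 has 3 annotated starts, of which the stretches chr10:82858956-82859205 and chr10:82860091-82860340 hold a match, and chr10:82833701-82833950 holds none.
Srxn1: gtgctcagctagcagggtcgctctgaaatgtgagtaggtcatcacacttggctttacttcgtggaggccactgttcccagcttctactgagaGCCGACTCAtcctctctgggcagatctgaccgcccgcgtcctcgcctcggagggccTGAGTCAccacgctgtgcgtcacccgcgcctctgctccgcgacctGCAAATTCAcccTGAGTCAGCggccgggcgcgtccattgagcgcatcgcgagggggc
Txnrd1 at chr10:82858956-82859205: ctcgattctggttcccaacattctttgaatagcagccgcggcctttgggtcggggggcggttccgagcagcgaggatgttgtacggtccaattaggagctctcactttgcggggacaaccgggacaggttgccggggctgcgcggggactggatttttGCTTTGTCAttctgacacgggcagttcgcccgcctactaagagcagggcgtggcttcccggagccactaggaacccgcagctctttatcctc
Txnrd1 at chr10:82860091-82860340: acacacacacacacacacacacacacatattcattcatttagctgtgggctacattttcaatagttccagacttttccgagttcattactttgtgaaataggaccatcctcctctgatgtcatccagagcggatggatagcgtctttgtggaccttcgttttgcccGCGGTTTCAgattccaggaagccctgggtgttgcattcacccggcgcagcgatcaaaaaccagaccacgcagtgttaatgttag

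The Srxn1 stretch held 3 matches to TGANNNNGC, with their first base 158, 57 and 45 bases before the start. It also held 2 matches to TGAGTCA, 102 and 45 bases before the start, and the nearer of these lies inside the nearest TGANNNNGC match. Each of the Txnrd1 stretches shown held 1 match to TGANNNNGC, 92 and 84 bases before its start. Of these only that at 92 bases also fitted TGACNNNGC, a narrower form of the same core. No match in the Srxn1 stretch fitted that narrower form. Of 32851 annotated mouse promoters of this length, 35.2% held TGANNNNGC, 10.2% TGACNNNGC and 4.46% TGAGTCA. The stretches of Txn1, Txnrd2, Txnip, Prdx2 and Prdx4 held none of these letters. Among the genes not measured, Prdx1 held 1 match to TGANNNNGC, which also fitted TGACNNNGC, and 2 to TGAGTCA. Prdx5 held 1 match to TGANNNNGC.

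Txnrd1 and Srxn1 were each covered by several probe sets, and those of Srxn1 disagreed. They are told apart here by their mean log2 signal over the 18 arrays. The values above came from the brightest, with means of 9.88 for Txnrd1 and 7.65 for Srxn1. The Txnrd1 probe set with a mean of 6.78 gave an NDA log2 fold change of 1.86 ± 0.24 (adjusted p = 0.000109). That with a mean of 4.25, between the 18.5th and 44.2nd percentile of its arrays, gave 1.08 ± 0.16 (adjusted p = 0.000483). With benzofuran these had values of 0.25 ± 0.24 and 0.23 ± 0.16, and neither was called. With NEDD they had 0.50 ± 0.24 and 0.37 ± 0.16, and with PCNB 0.53 ± 0.24 and 0.32 ± 0.16, none of them called. The Srxn1 probe set with a mean of 6.86 was close to the brightest, with 1.74 ± 0.16 for NDA (adjusted p = 2.29e-06) and 0.61 ± 0.16 for benzofuran (adjusted p = 0.0586). That with a mean of 6.34 gave 0.85 ± 0.17 for NDA (adjusted p = 0.0106) and 0.58 ± 0.17 for benzofuran (adjusted p = 0.0821). The Srxn1 probe set with a mean of 6.36 was called in no comparison, with 0.22 ± 0.12 for NDA (adjusted p = 0.59) and -0.08 ± 0.12 for benzofuran. In the order of means 6.86, 6.36 and 6.34, Srxn1 was at 0.18, 0.19 and -0.14 with NEDD. With PCNB it was at 0.41, 0.20 and 0.15, and none of these was called.

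**Figure D2:**
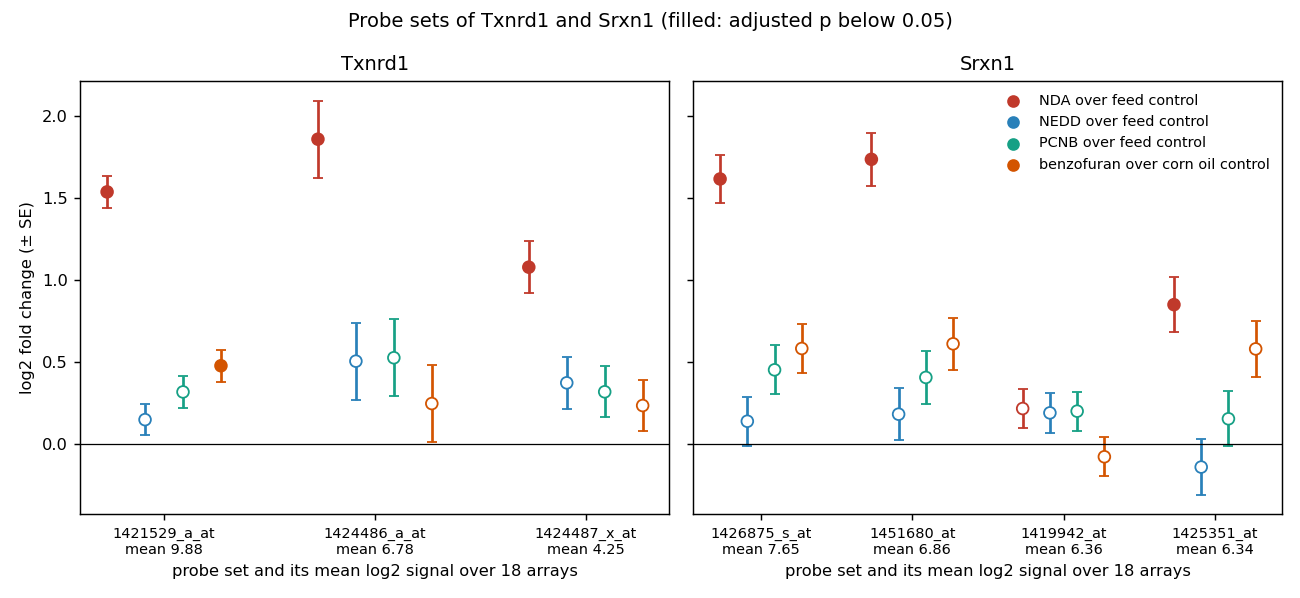
Log2 fold change ± SE of every Txnrd1 and Srxn1 probe set for each treatment over its own control (n = 3 arrays per group), with filled points where the adjusted p is below 0.05. NDA was called in all Txnrd1 probe sets and in 3 of 4 Srxn1 probe sets, where that with a mean signal of 6.36 gave 0.22.

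The mitochondrial reductase Txnrd2 was called with no treatment. Its signals were 7.10, 6.84 and 6.99 with NDA, against 7.02, 6.94 and 6.95 in feed control. The groups overlapped, with a log2 fold change of 0.01 ± 0.10 (-0.21 to 0.22, adjusted p = 0.99). With benzofuran they were 7.20, 6.97 and 7.37, against 6.89, 6.88 and 6.87 in corn oil control. The benzofuran arrays lay above all of these, and the log2 fold change of 0.30 ± 0.10 (0.09 to 0.52) was not called (adjusted p = 0.123). It was 0.21 without benzofuran 10, the highest of all 18 arrays for this gene. The 3 other Txnrd2 probe sets gave smaller benzofuran values of 0.05 to 0.14 and NDA values of -0.05 to 0.14, none of them called. PCNB gave 0.06 and NEDD -0.05, with adjusted p of 1 and 0.884. The other probe sets gave PCNB values of -0.15 to 0.11 and NEDD values of -0.01 to 0.41, none of them called.

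Thioredoxin itself, encoded by Txn1, is the cytosolic substrate of Txnrd1. Its signals were 12.29, 12.27 and 12.38 with NDA, against 12.09, 11.87 and 11.91 in feed control. The arrays did not overlap, and the log2 fold change of 0.35 ± 0.11 (0.13 to 0.58) was not called (adjusted p = 0.157). The same value was called once benzofuran 10 was left out of the pooled spread (adjusted p = 0.0282), although that array is in neither group. With the actin 3' minus 5' difference as a covariate the log2 fold change was 0.50 (adjusted p = 0.0205), and those of Txnrd1 and Srxn1 were 1.58 and 1.83. In that fit Prdx2, Prdx4, Txnrd2 and Txnip were at 0.48, 0.52, 0.11 and -0.17, none of them called. The NDA and feed control arrays do not overlap in their actin difference, so that covariate and treatment cannot be fully separated. The other probe set of Txn1, with a mean of 6.01 against 12.09, gave 0.19 for NDA and 0.02 for benzofuran. It gave higher values for PCNB (0.39) and NEDD (0.26), and none of the 4 was called. Benzofuran gave 12.15, 12.05 and 12.50, against 11.96, 11.94 and 11.95 in corn oil control. These did not overlap, with a log2 fold change of 0.28 ± 0.11 (0.06 to 0.51, adjusted p = 0.165), or 0.15 without benzofuran 10. PCNB differed from feed control by 0.16 and NEDD by -0.02, and neither was called.

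Prdx2 is a cytosolic peroxiredoxin that is abundant in red blood cells. Its signals were 10.48, 10.56 and 10.62 with NDA, against 10.38, 10.08 and 10.19 in feed control. All NDA arrays were higher, and the log2 fold change of 0.34 ± 0.12 (0.08 to 0.60) was not called (adjusted p = 0.264). Of 10 erythroid markers 4 were tested, and their mean, centred by gene, lay between -0.11 and 0.97 with NDA, against -0.56 to -0.20 in feed control. None of the 4 was called, and the part of red cells in the Prdx2 value was not tested. In bulk tissue, more cells of a type and more RNA per cell cannot be told apart. With benzofuran Prdx2 was at 10.53, 10.49 and 11.01, against 10.38, 10.20 and 10.41 in corn oil control. The arrays did not overlap, with a log2 fold change of 0.35 ± 0.12 (0.09 to 0.60, adjusted p = 0.133), and 0.18 without benzofuran 10. The erythroid mean lay between -0.15 and -0.02 with benzofuran, against -0.41 to 0.90 in corn oil control. The other Prdx2 probe set gave 0.23 for NDA and 0.42 for benzofuran, without a call. NEDD and PCNB gave Prdx2 values of 0.18 and 0.10 over feed control, neither of them called. The erythroid mean lay between -0.175 and 0.751 with NEDD, and between -0.394 and -0.068 with PCNB.

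Prdx4 is the peroxiredoxin of the endoplasmic reticulum, where proteins for secretion are folded. Its signals were 9.87, 9.61 and 9.78 with NDA, against 9.49, 9.56 and 9.43 in feed control. The arrays did not overlap, and the log2 fold change was 0.26 ± 0.15 (-0.06 to 0.58, adjusted p = 0.614). Of the 3 other Prdx4 probe sets, 1 was dim, at 0.06 for NDA, and the others gave -0.10 and -0.09, so that the sign depended on the probe set. Some plasma cell genes moved with NDA. The mean of 8 plasma cell markers, centred by gene, lay between 0.83 and 1.40 with NDA, against -0.53 to -0.05 in feed control. Of the 8, 4 were called higher (Ighm, Jchain, Mzb1 and Derl3), beside 1.12% of all genes. The others were not called, with Sdc1 at 0.36, Irf4 at 0.46, Xbp1 at -0.07 and Prdm1 at -0.19. The part of plasma cells in the Prdx4 value was not tested. With benzofuran Prdx4 was at 9.56, 9.54 and 10.31, against 9.36, 9.60 and 9.62 in corn oil control. Benzofuran 10 alone stood above corn oil control, and the log2 fold change was 0.28 ± 0.15 (-0.04 to 0.60, adjusted p = 0.325) with it and 0.03 without it. NEDD gave 0.03 and PCNB -0.01 over feed control, neither of them called. The other Prdx4 probe sets that were not dim gave -0.43 and -0.29 for NEDD, and -0.27 and -0.16 for PCNB. For benzofuran they gave 0.35 and 0.32. The dim one gave -0.03, 0.05 and 0.06 for NEDD, PCNB and benzofuran, and none of these values was called.

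Txnip binds and inhibits thioredoxin, belongs to the alpha-arrestins and is known to be induced by glucose. Its signals were 12.32, 12.52 and 12.47 with NDA, against 12.38, 12.67 and 12.44 in feed control. With benzofuran they were 12.32, 12.61 and 12.12, against 12.62, 12.41 and 12.20 in corn oil control. The groups overlapped in both cases, and the log2 fold changes were -0.06 ± 0.15 (-0.36 to 0.25) and -0.06 ± 0.15 (-0.36 to 0.25). NEDD gave -0.02 ± 0.15 (-0.32 to 0.28) and PCNB -0.15 ± 0.15 (-0.45 to 0.16). A change of Txnip within these bounds could not be told from no change. The other Txnip probe set gave 0.23 for NDA and -0.29 for benzofuran, neither of them called. Benzofuran 10 had the lowest Txnip signal of the 18 arrays, and without it the benzofuran value was 0.06. Of 7 alpha-arrestins and glucose-sensing factors listed beside it, 6 were tested and none was called in any of the 8 comparisons. The smallest adjusted p among them with NDA was that of Arrdc4, another alpha-arrestin, at -0.54 ± 0.22 (adjusted p = 0.37).

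**Figure D3:**
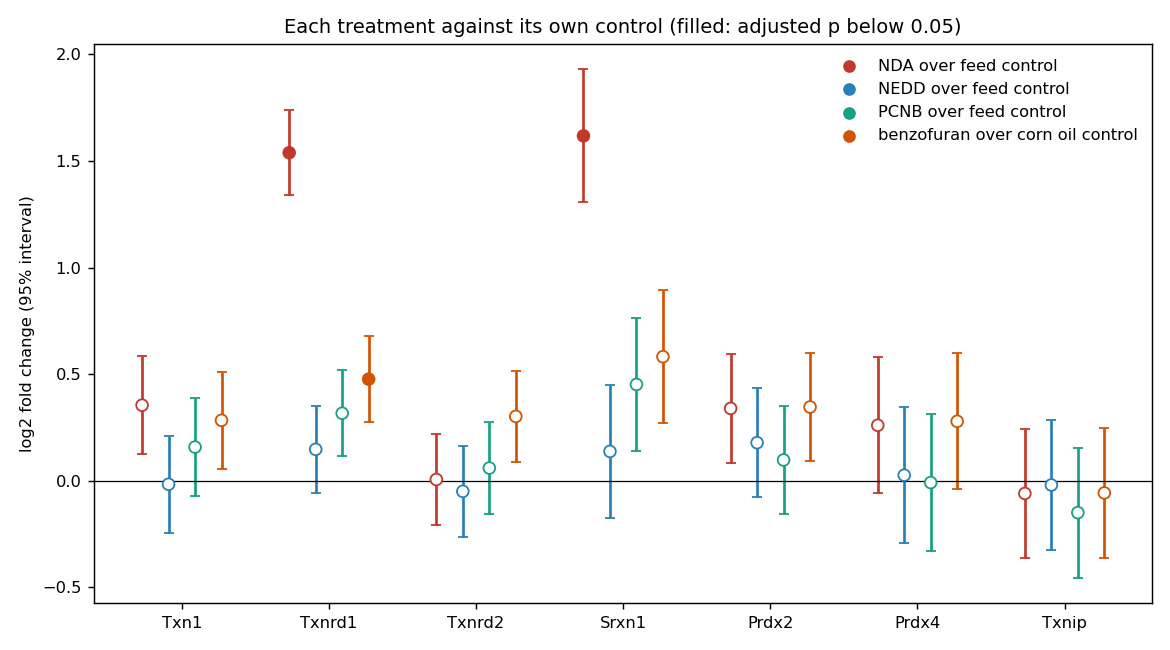
Log2 fold change of the 7 measured genes for each treatment over its own control, with 95% intervals from the fit to all 18 arrays and filled points where the adjusted p is below 0.05. Txnrd1 and Srxn1 stand at 1.54 and 1.62 with NDA, the intervals of Txnip all include 0, and the Txnrd1 value with benzofuran is 0.48.

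Counted over the set, 2 of the 7 measured genes were called higher with NDA, where 1.12% of all genes tested were called higher. On 5 of the 7 genes all NDA arrays lay above all feed control arrays, as 9.48% of all genes did. The median log2 fold change of the 7 was 0.34, beside -0.02 over all genes. With benzofuran 1 of 7 was called higher, against 1.56% of all genes, 5 of 7 did not overlap and lay higher, against 13.1%, and the median was 0.30 beside 0.05. Without benzofuran 10 none of the 7 was called, among 67 genes called in all, 5 of 7 lay higher without overlap beside 17.2% of all genes, and the median was 0.18 beside 0.02. Benzofuran 10 was the highest of the 3 benzofuran arrays for 6 of the 7 genes and the highest of all 18 for 4 of them (Txn1, Txnrd2, Prdx2 and Prdx4). With NEDD no gene of the set was called (0.0223% of all genes in either direction), and none had arrays that did not overlap (19.3% of all genes in either direction). The 7 genes had a median of 0.03, beside -0.02 over all genes. With PCNB none was called (0.0149% of all genes), 2 of 7, Txnrd1 and Srxn1, lay higher without overlap (3.67% of all genes), and the median was 0.10 beside -0.02. These 3 feed comparisons share their control arrays. At an unadjusted p below 0.05 limma counted 4 of the 7 genes with NDA (10.3% of all genes), 0 with NEDD (9.44%), 2 with PCNB (2.97%) and 5 with benzofuran (19.5%).

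The controls themselves gave the background for route and vehicle. Corn oil control minus feed control ranged from -0.09 (Txnrd2) to 0.12 (Prdx2) over the 7 genes, and limma called none of them (0% of all genes, and at an unadjusted p below 0.05 counted 0 of the 7 beside 2.02% of all genes). Txnrd2 was the gene whose corn oil control arrays all lay below the feed control arrays, as they did for 4.91% of all genes.

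NDA and NEDD were given in feed at the same dose, and their names share a naphthalene ring. NDA carries both amino groups on the ring, and NEDD carries an ethylenediamine chain on it. They were the only such pair compared. Txnrd1 was 2.62-fold higher with NDA than with NEDD (log2 fold change 1.39 ± 0.10, 1.19 to 1.59, adjusted p = 8.3e-08) and Srxn1 2.79-fold higher (1.48 ± 0.15, 1.17 to 1.79, adjusted p = 5.88e-06). These were 2 of 7 genes called higher, where 1.88% of all genes were. Txn1 differed by 0.37 ± 0.11 (0.14 to 0.60, adjusted p = 0.103) and was called without benzofuran 10 in the fit (adjusted p = 0.0138). No difference was called for Txnrd2 (0.06, interval -0.16 to 0.27), Txnip (-0.04, -0.34 to 0.27), Prdx2 (0.16, -0.10 to 0.42) or Prdx4 (0.23, -0.09 to 0.55).

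Both chemicals labelled positive were set against each other by the difference of their effects, each taken over its own control. The Txnrd1 effect of NDA exceeded that of benzofuran by 1.06 ± 0.14 (0.78 to 1.35, adjusted p = 0.000831), and the Srxn1 effect by 1.04 ± 0.21 (0.59 to 1.48, adjusted p = 0.0424). These 2 of 7 genes compare with 0.201% of all genes called higher. The Srxn1 call was lost in 10 of 12 fits that left out 1 array, with values of 0.88 to 1.24. Both differences depended on the probe set. For Srxn1, the probe set with a mean signal of 6.86 gave 1.13 (adjusted p = 0.0399), and those with means of 6.36 and 6.34 gave 0.29 (adjusted p = 0.592) and 0.27 (adjusted p = 0.729). For Txnrd1, that with a mean of 6.78 gave 1.61 (adjusted p = 0.0476) and that with a mean of 4.25 gave 0.85 (adjusted p = 0.216). Txnrd2 had a difference of -0.30 ± 0.14 (-0.60 to 0.01, adjusted p = 0.546), and -0.20 without benzofuran 10. Txn1, Txnip, Prdx2 and Prdx4 differed by -0.02 to 0.07, and this range rested on benzofuran 10, since without it the values were 0.20, -0.12, 0.16 and 0.23. None of these was called, while Txnrd1 and Srxn1 were at 1.07 (adjusted p = 0.000788) and 1.24 (adjusted p = 0.00138) without that array. Chemical, dose, route, vehicle and days of dosing a week all differ between these treatments and cannot be told apart.

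The mean effect of the positive chemicals minus that of the negative ones was 0.78 ± 0.08 for Txnrd1 (adjusted p = 3e-05) and 0.81 ± 0.13 for Srxn1 (adjusted p = 0.00147). On the probe sets used, the Txnrd1 effects behind it were 1.54 with NDA, 0.48 with benzofuran, 0.32 with PCNB and 0.15 with NEDD. For Srxn1 they were 1.62, 0.58, 0.45 and 0.14 in the same order. On these probe sets benzofuran lay nearer to PCNB than to NDA in both genes. Each class holds 2 chemicals, and the limma p-values take their spread from animals, not from chemicals. The count of 2 of 7 genes called higher stands beside 3.16% of all genes. Txn1 (0.25 ± 0.09, adjusted p = 0.166), Prdx2 (0.20), Prdx4 (0.26), Txnrd2 (0.15) and Txnip (0.03) were not called. Without benzofuran 10 Txnrd1 and Srxn1 were at 0.77 and 0.71, both called, and the others at 0.18 for Txn1, 0.12 for Prdx2, 0.13 for Prdx4, 0.10 for Txnrd2 and 0.08 for Txnip. Ciliated cell markers moved with this contrast. Of 8 of them 5 were called higher and all 8 were positive, with a median of 0.64, or 5 called with a median of 0.54 without benzofuran 10. Their mean per array, centred by gene, lay between 0.10 and 0.19 with NDA, -0.36 and -0.29 with NEDD, -0.25 and -0.07 with PCNB, and -0.25 and 0.14 in feed control. With benzofuran it lay between 0.21 and 0.67, above the -0.30 to 0.08 of corn oil control. Their part in the values of Txnrd1 and Srxn1 was not tested. The Txnrd1 probe sets with means of 6.78 and 4.25 were not called in this contrast, at 0.54 (adjusted p = 0.167) and 0.31 (adjusted p = 0.226). On both of them NEDD (0.50 and 0.37) and PCNB (0.53 and 0.32) lay above benzofuran (0.25 and 0.23), unlike on the probe set used. The other Txn1 probe set gave -0.22 in this contrast. The Srxn1 probe set with a mean signal of 6.36 gave -0.13 ± 0.10 here (adjusted p = 0.537), the opposite sign to the probe set used.

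The wider families were looked at in the same way. Of 34 other thioredoxin-fold and methionine sulfoxide reductase genes 33 were tested. None was called higher with any treatment, where 1.12% of all genes were with NDA and 1.56% with benzofuran. With NDA 1 was called lower, the reductase Txnrd3 at -0.50 ± 0.11 (adjusted p = 0.0247), an enzyme best known from testis. Their median was 0.06 with NDA and 0.10 with benzofuran, or 0.01 without benzofuran 10. The mitochondrial peroxiredoxin Prdx3 had values of 0.06 ± 0.12 with NDA and 0.34 ± 0.12 with benzofuran (adjusted p = 0.146), or 0.19 without benzofuran 10. Of 23 other selenoprotein genes and factors of selenocysteine synthesis, all tested, Txnrd3 was lower with NDA and Selenoh, a nucleolar selenoprotein, was higher with benzofuran (0.63 ± 0.15, adjusted p = 0.0423; 0.39 and not called without benzofuran 10). In the contrast of positive and negative chemicals the lipid hydroperoxidase Gpx4 and Selenom were called higher, also without benzofuran 10. These are 2 of the 23, where 3.16% of all genes were called higher.

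Many other NRF2 targets were called, from a list chosen with earlier results of these data known, so that the counts carry no test. Of 24 listed, 20 were tested. With NDA 17 of these were called higher (1.12% of all genes) and none lower, with a median of 0.91. The smallest p belonged to the quinone reductase Nqo1 (3.10 ± 0.19), the glutathione peroxidase Gpx2 (2.45 ± 0.17), the glutathione synthesis subunit Gclm (1.47 ± 0.10) and the glutathione transferase Gsta2 (1.99 ± 0.16). With benzofuran, 10 of the 20 were called higher (1.56% of all genes) and none lower, with a median of 0.48. They were led by Nqo1 (2.15 ± 0.19), Gpx2 (1.68 ± 0.17), Gsta3 and Gstm1. Without benzofuran 10, 9 of the 20 were called higher and none lower, with a median of 0.41, Nqo1 at 1.93 and Gpx2 at 1.45. None of the 20 was called with NEDD (0.0223% of all genes in either direction) or PCNB (0.0149%). With so few genes called in all, the lack of a call does not set these targets apart. Their median was 0.01 with NEDD, and 0.15 with PCNB, where all 20 had positive values. The median over all genes was -0.02 in both comparisons.

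**Figure D4:**
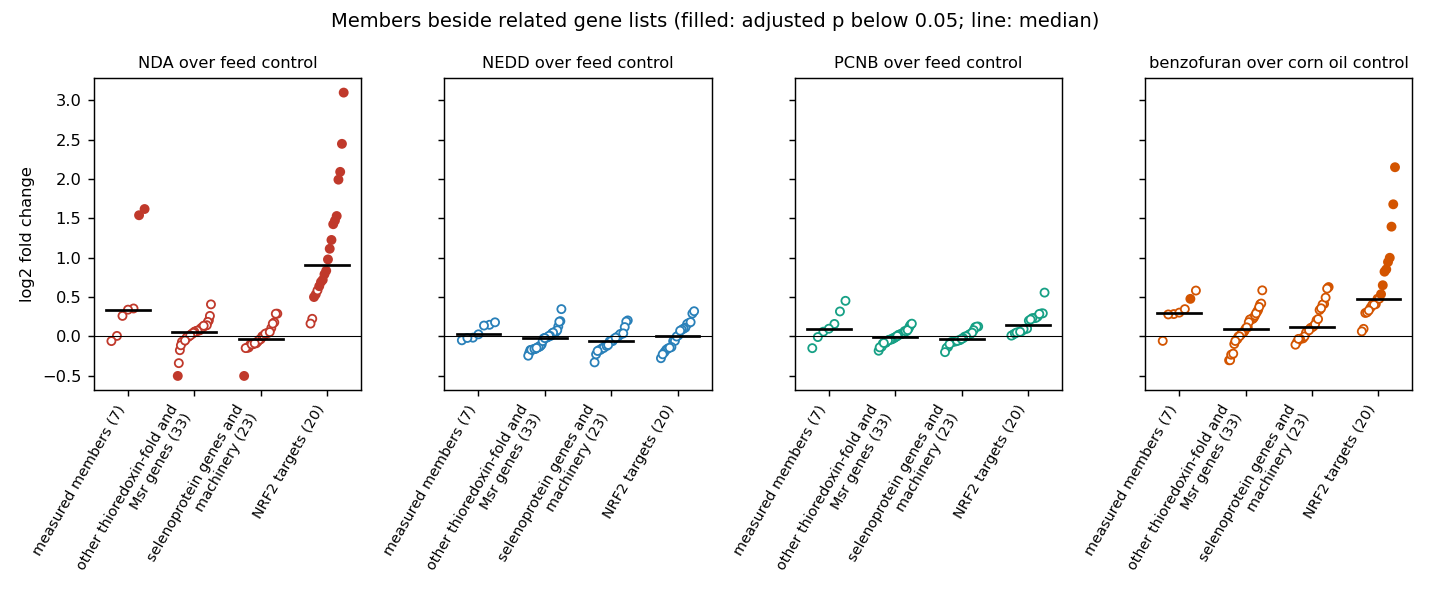
Log2 fold change of each tested gene in 4 groups of genes for each treatment over its own control, with the number of genes in parentheses, filled points where the adjusted p is below 0.05 and a line at the group's median. With NDA 17 of 20 NRF2 targets and 2 of the 7 measured genes were called higher, while 1 of 33 other thioredoxin-fold and Msr genes was called, lower. Of all genes tested 1.12% were called higher with NDA, and the lists were chosen with earlier results of these data known.

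By the root mean square (RMS) difference of centred log2 signals over the 18 arrays, the same 5 genes outside the set were closest to Srxn1 and to Txnrd1. They were Gclm (0.193 from Srxn1 and 0.15 from Txnrd1), Entpd5 (0.232 and 0.197), a nucleotidase of the endoplasmic reticulum, the glutathione reductase Gsr (0.236 and 0.217), the heme oxygenase Hmox1 (0.241 and 0.211) and Upk3a (0.248 and 0.19), a uroplakin. Srxn1 and Txnrd1 differed from each other by 0.153, where their own RMS deviations were 0.581 and 0.542. The genes outside the set closest to Txnip were Tax1bp1 (0.0933), Nfatc1, Pdlim5, Ahctf1 and Sik3 (0.115), beside an own RMS deviation of 0.162 for Txnip. These distances describe 18 arrays that share their groups and carry no test.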

How the data were processed

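Total RNA of 18 right lung lobes was purified, and 10 µg was labelled with biotin and hybridised to Affymetrix whole-genome mouse arrays, 1 animal per array, per the labels' protocols. The authors deposited log2 values for 45101 probe sets (range 2.48 to 14.8). The base of the logarithm was judged from that range, and how signals were summarised and normalised is not given in the sources used here. The platform annotation named the probe sets (34945 with 1 symbol, 932 with several, 9160 with none, 64 controls), and 34741 matched RefSeq genes of GRCm38.p6.

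Each gene was read from its brightest probe set and entered the tests if 3 or more arrays had it above their own 40th percentile. With limma 3.58.1 (R 4.3.3), a linear model of the 6 group means was fitted to every gene over the 18 arrays (12 residual degrees of freedom), with two-sided p-values, Benjamini-Hochberg adjustment over 13434 genes in each of 8 comparisons and a threshold of 0.05. An exact permutation test of 3 against 3 animals cannot go below 0.1. The number of arrays limits the precision. The procedure was also run on simulated data with independent normal noise and no array that stands apart. Such runs cannot vouch for calls in data that hold such an array.

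All measured members were named. Of each related list up to 4 called genes with the smallest p were named, and for Srxn1, Txnrd1 and Txnip the 5 nearest genes. Prdx3, Arrdc4 and the called plasma cell markers were chosen after their values were seen. The members and lists were chosen with earlier results of these data known. Alternatives were the filter, scaling, arrays in the fit, array weights, prior, probe set choice and an actin covariate.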

Additional observations from a re-analysis of the deposited data

Results flagged for a closer look

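The effects of NDA and benzofuran, each over its own control, differed in 2 of the 7 measured genes by a test of the difference itself. The log2 effect of NDA exceeded that of benzofuran by 1.062 for Txnrd1 (adjusted p = 0.000831) and by 1.036 for Srxn1 (adjusted p = 0.0424). Txnrd1 stood at 1.54 with NDA and 0.48 with benzofuran, and Srxn1 at 1.62 with NDA and 0.58 with benzofuran. The Txnrd1 call held in all 12 fits that left out 1 array, and the Srxn1 call was lost in 10 of them (0.88 to 1.24). With other probe sets the Srxn1 difference was 1.13 (adjusted p = 0.0399), 0.29 (adjusted p = 0.592) and 0.27 (adjusted p = 0.729), and the Txnrd1 difference 1.61 (adjusted p = 0.0476) and 0.85 (adjusted p = 0.216).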

How the results depend on the processing

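No paired analysis was possible because no animal number occurs in more than 1 group. The NDA calls of Txnrd1 and Srxn1 held in every fit without 1 array, at 1.48 to 1.59 and 1.53 to 1.68, and under every setting of scaling, filter and spread that was tried, but not with every Srxn1 probe set. The numbers of genes called moved more than the members did. With only the groups compared in the fit, 283 genes were called with NDA, 0 with NEDD, 0 with PCNB and 5 with benzofuran, against 184, 3, 2 and 233. With array weights there were 755 (422 higher, 333 lower), 521 with NEDD (193 higher, 328 lower) and 1149 with benzofuran (811 higher, 338 lower). With the actin covariate there were 364 with NDA (302 higher, 62 lower), 1 with NEDD and 734 with benzofuran (649 higher, 85 lower). An intensity trend with a robust prior left 1 with NEDD. Of the members, 4 rather than 2 were called with NDA under array weights, Txn1 (0.41, adjusted p = 0.00214) and Prdx2 (0.41, adjusted p = 0.00487) being added. With benzofuran the member count was 2 with median centring, 0 with only the compared groups, 3 with array weights, 2 with the trend and robust prior, 0 with the mean of all probe sets and 2 with the actin covariate, against 1. For the NDA effect minus the benzofuran effect it was 1 with median centring, 1 with only the compared groups and 1 with the mean of probe sets, against 2.

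Without single arrays, NDA called 120 (without feed control 29) to 150 genes and 2 to 3 members, NEDD 0 (without feed control 28 or NEDD 15) to 3 genes, PCNB 2 to 3 and benzofuran 37 to 1054 (67 without benzofuran 10, 37 and 113 when corn oil control 22 or 24 was left out, 1054 without benzofuran 8). Benzofuran then called 0 to 4 members, 0 without benzofuran 10 or corn oil control 22, NDA against NEDD 2 to 3 and the difference of the NDA and benzofuran effects 1 to 2. The fits without benzofuran 10 of comparisons it is no part of, and of counts and medians over gene lists, were chosen after seeing the data. Of 1113 recomputed member values 26 lost a call and 17 gained one. The sign of 110 values that were not called changed, in 38 of them with a shift larger than the standard error, and 1 called value reversed, that of Srxn1, at -0.13 with the probe set of mean signal 6.36 for positive minus negative chemicals. The cause was not tested for any of these changes. Detection calls were not used, so that low signals are told from background by the percentile filter alone.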
